A study of Mus musculus with 6 samples.

Results

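The 10 genes described here encode the proteins that license origins of DNA replication and the factors that act directly on them: Mcm2, Mcm3, Mcm4, Mcm5, Mcm6, Mcm7, Mcm10, Cdc6, Cdt1 and Gmnn. They were chosen by gene symbol, and all 10 were found among the 11922 genes of the deposited count table and passed the low-count filter that left 11759 genes for testing. CD8+ T cells were taken by magnetic beads from the spleens of 3 C57BL6/J donor mice, activated with beads carrying antibodies to CD3 and CD28 for 3 days and then expanded for 4 days. Interleukin-2 at 100 units/ml was present throughout, with either water as vehicle or 0.25 mM AOA (aminoxyacetic acid), an inhibitor of enzymes that use pyridoxal phosphate, the active form of vitamin B6. Each mouse gave cells to both groups, which gives 3 libraries per group, with replicate numbers that stand for the mice, and cells were harvested on day 7. The study used animals of both sexes above 6 weeks of age, without saying which these donors were. Each library is RNA of a whole culture, in which a larger share of cycling cells and more RNA per cycling cell cannot be told apart.

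Before a cell copies its DNA, the origin recognition complex marks each origin, and CDC6 and CDT1 together load the ring of MCM2 to MCM7 subunits around the double helix. This step is called licensing and is confined to late mitosis and G1, when CDK activity is low. The loaded ring is inactive until S phase, when kinases and firing factors, MCM10 among them, turn it into the helicase that opens the fork. Geminin, the product of Gmnn, binds CDT1 and blocks a second round of loading, and CDT1 itself is destroyed by ubiquitin ligases once S phase begins. Resting lymphocytes hold little of this machinery and make it anew after activation, largely through E2F transcription factors.

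The RefSeq promoters of the members (250 bases before to 50 after the annotated start, GRCm38.p6) were searched for 4 forms of the E2F motif, TTTGGCGC, TTTGCCGC, TTTCGCGC and TTTCCCGC, on both strands. RefSeq promoters were matched for 8 of the 10 members, and Mcm4 and Gmnn had no entry in the promoter set used here. The 8 members had 9 promoters, since Mcm7 has a pair. A match was found in 6 of these 9 promoters, 1 in each of 6 members, against 4.14% of the 11991 promoters of tested genes and 2.26% of all 32851 promoters. The contrast was smaller for shorter strings. The same forms without their first T were found in 7 of the 9 promoters, against 16.8% of those of tested genes. The CCAAT box was found in 7 of 9, against 37.7%, and the CHR string TTTGAA in 1 of 9, against 12.2%. Mcm2 and Mcm10 held none of the E2F strings, long or short, but both held a CCAAT box, and Mcm2 held the CHR string. The stretches below are those of Mcm5 and Mcm6, the ring subunits with the largest and the smallest rise in the main fit. Those of the loaders Cdc6 and Cdt1, which had the largest and the smallest rise of all members, follow. Capitals mark the matches, and the run of 12 capitals in Mcm5 and in Mcm6 is a pair of overlapping matches on opposite strands.
Mcm5, chr8:75109316-75109407, plus strand: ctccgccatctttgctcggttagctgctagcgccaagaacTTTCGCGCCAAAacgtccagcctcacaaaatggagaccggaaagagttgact
Mcm6, chr1:128359706-128359855, minus strand: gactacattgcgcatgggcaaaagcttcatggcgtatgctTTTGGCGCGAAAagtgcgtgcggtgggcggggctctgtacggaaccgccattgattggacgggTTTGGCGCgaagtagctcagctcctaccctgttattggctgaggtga
Cdc6, chr11:98908003-98908032, plus strand: ccggtggagaGCGGGAAAtcgcctggggtc
Cdt1, chr8:122568035-122568064, plus strand: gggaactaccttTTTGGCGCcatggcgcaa
The matches of Mcm5 and Mcm6 lie upstream of the annotated start, that of Cdt1 lies 33 to 40 bases past it, and that of Cdc6 lies 138 to 131 bases before the RefSeq start, inside the span that GENCODE vM21 gives the gene. A string match is a description of the sequence. It was not tested as a binding site or for a part in the changes of these genes.

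All 10 members were called higher with AOA, where 53.0% of tested genes were called in either direction, 26.2% higher and 26.8% lower (edgeR quasi-likelihood test, Benjamini-Hochberg adjusted p under 0.05 over 11759 genes). The members' median log2 fold change was 2.37, against -0.02 over all tested genes. For 6 members the log2 fold change was at least 2, which held for 3.39% of tested genes. In each of the 10, every AOA library lay above every vehicle library, as for 31.0% of tested genes, while 62.1% had groups that did not overlap in either direction. The rise was not equal, however, and ran from a log2 fold change of 0.58 for Cdt1 to 3.88 for Cdc6. Without Cdt1 the smallest was 1.87, and the largest adjusted p was 4.29e-05 by edgeR. Ranked by log2 fold change among all tested genes, Cdc6 was at place 33, Mcm10 at 71, Mcm5 at 97 and Cdt1 at 2756.

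**Figure D1:**
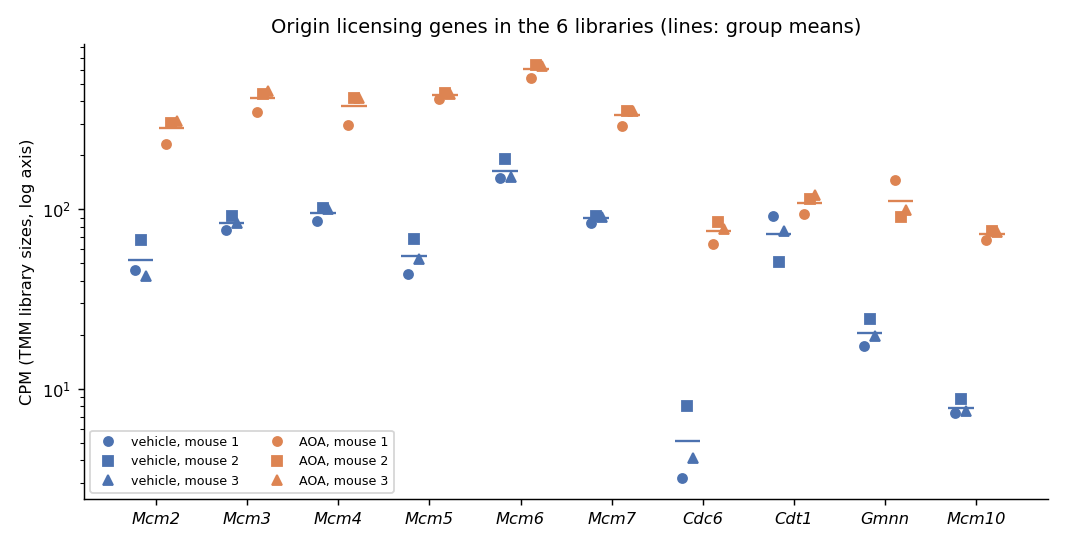
Level of each member in every library, as counts per 1000000 counts of the library (CPM, with library sizes adjusted by TMM) on a log axis, with vehicle in blue, AOA in orange, a marker shape for each mouse and a line at each group mean. The groups are far apart for 9 genes, while for Cdt1 the highest vehicle library (92.0 CPM) comes close to the lowest AOA library (94.1 CPM).

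Among the 6 subunits of the helicase ring, Mcm5 (Entrez gene 17218, chr8:75109569-75128439 in GRCm38, plus strand) rose most. Its level was 43.6, 68.7 and 52.8 CPM in vehicle replicates 1, 2 and 3 and 413, 446 and 439 CPM in AOA replicates 1, 2 and 3. This is a 7.86-fold rise, with a log2 change of 2.97 ± 0.19 (SE; edgeR, adjusted p = 1.38e-05). Mcm6 (Entrez gene 17219, chr1:128331590-128359664, minus strand), the most abundant subunit by CPM in both groups, rose least in the main fit. It stood at 150, 192 and 152 CPM with vehicle and at 541, 641 and 628 CPM with AOA, and its log2 change came to 1.87 ± 0.16 (SE; edgeR, adjusted p = 3.82e-05). With trends in gene length removed, Mcm7 rose least, by 1.88 against 1.95 for Mcm6. The 95% intervals of the main fit, 2.55 to 3.40 for Mcm5 and 1.51 to 2.24 for Mcm6, did not overlap, but the pair was picked as the extremes of these same values. Mcm2 (Entrez gene 17216, chr6:88883474-88898780, minus strand) stood at 45.7, 67.8 and 42.5 CPM with vehicle and at 232, 305 and 312 CPM with AOA, a log2 change of 2.44 ± 0.21 (SE; edgeR, adjusted p = 3.87e-05). The remaining subunits, Mcm3, Mcm4 and Mcm7, had log2 fold changes of 2.30, 1.97 and 1.91, and their vehicle libraries lay between 76.5 and 101 CPM while their AOA libraries lay between 293 and 454 CPM. Mcm3 (Entrez gene 17215) lies at chr1:20802968-20820312 and Mcm4 (Entrez gene 17217) at chr16:15623897-15637400, both on the minus strand. Mcm7 (Entrez gene 17220, chr5:138164583-138172422, minus strand) shares 7.25% of its exonic bases with Ap4m1 on the opposite strand, and the sources used here do not say whether reads were counted by strand.

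Because the subunits work as a ring with 1 copy of each, their transcripts were also compared per length, as CPM per kilobase of the deposited gene length. The summed level of the 6 subunits was 162 ± 18.4 CPM per kilobase (SD, n = 3) with vehicle and 734 ± 83.8 CPM per kilobase (SD, n = 3) with AOA. The most abundant subunit exceeded the least abundant by 2.77-, 2.17- and 3.02-fold in vehicle replicates 1, 2 and 3 and by 1.77-, 1.69- and 1.70-fold in AOA replicates 1, 2 and 3, so that the levels of the 6 lay closer together in each AOA library than in any vehicle library. Mcm5 had the largest change in share. Its part of the summed level was 8.70%, 11.0% and 9.75% with vehicle and grew to 18.8%, 16.6% and 16.3% with AOA, in replicates 1, 2 and 3. The shares of Mcm6 and Mcm7 were lower with AOA, at 18.6% ± 0.529 (SD, n = 3) against 22.9% ± 1.05 (SD, n = 3) for Mcm6 and at 19.0% ± 0.183 (SD, n = 3) against 23.1% ± 1.73 (SD, n = 3) for Mcm7. Mcm2 was the least abundant subunit in every AOA library, with 11.4% ± 0.513 of the sum (SD, n = 3). A share can change because another subunit changes, and all 6 rose in level.

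**Figure D2:**
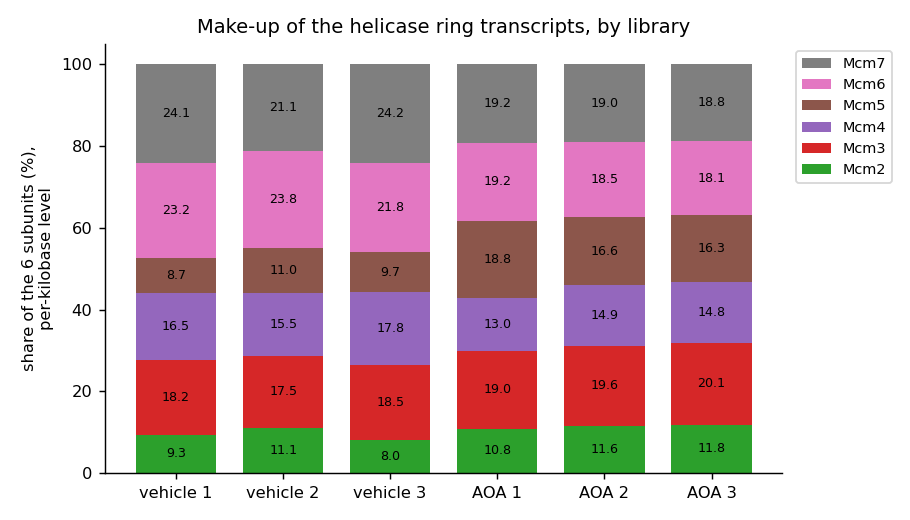
Share of each of the 6 ring subunits in their summed per-kilobase level, in percent, for each library, with the values written in the bars. The Mcm5 segment widens from at most 11.0% with vehicle to at least 16.3% with AOA.

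The loaders Cdc6 and Cdt1 rose by unequal amounts, and the 95% intervals of their log2 fold changes, 3.19 to 4.58 and 0.12 to 1.05, did not overlap. Cdc6 (Entrez gene 23834, chr11:98907801-98923940, plus strand), the ATPase that joins the origin recognition complex first, was scarce in vehicle cells, at 3.17, 7.99 and 4.13 CPM, and reached 64.4, 85.3 and 77.9 CPM with AOA. Its rise of 14.8-fold was the largest of the members, with a log2 change of 3.88 ± 0.31 (SE; edgeR, adjusted p = 2.52e-05). Cdt1 (Entrez gene 67177, chr8:122568015-122573554, plus strand), its partner in loading, was already abundant in vehicle cells, at 92.0, 51.2 and 75.5 CPM, and reached 94.1, 114 and 120 CPM with AOA. The groups were separated only by the gap between 92.0 and 94.1 CPM, and both of those values came from mouse 1. The difference within a mouse was 0.03, 1.15 and 0.66 log2 CPM in mice 1, 2 and 3. The fit gave Cdt1 a log2 change of 0.58 ± 0.21 (SE; 95% interval 0.12 to 1.05; edgeR, adjusted p = 0.0390). This call was lost without AOA replicate 1, 2 or 3 (adjusted p = 0.0518, 0.0858 and 0.113 by edgeR) and without vehicle replicate 3 (0.0610), and it was lost narrowly when trends with gene length were removed (0.0520), though not when the mouse was also a block (0.0472). It held with the replicate block alone (adjusted p = 0.0246 by edgeR), and without vehicle replicate 2, the library with the lowest Cdt1, the log2 fold change was 0.42. The call of Cdt1 was lost under 5 of the 15 alternatives, whereas each of the other 9 members was called under all 15.

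Gmnn (Entrez gene 57441, chr13:24751845-24761923, minus strand), which encodes the inhibitor of CDT1, stood at 17.2, 24.6 and 19.7 CPM with vehicle and at 146, 90.6 and 99.1 CPM with AOA. Its log2 change came to 2.44 ± 0.22 (SE; edgeR, adjusted p = 4.29e-05), a 5.44-fold rise of its RNA. AOA replicate 1 stood above the mean of the other AOA libraries by 0.62 log2 CPM. Gmnn is the shortest member, with a deposited length of 977 bases, and the 384 tested genes within 10% of that length were also higher in AOA replicate 1, by a median of 0.41 log2 CPM. Gmnn was still called with length trends removed (log2 fold change 2.22) and when AOA replicate 1 was left out (2.21). Mcm10 (Entrez gene 70024, chr2:4989714-5012791, minus strand), which joins the ring when it is turned into an active helicase, had the smallest adjusted p of the members. It stood at 7.30, 8.75 and 7.49 CPM with vehicle and at 67.6, 75.6 and 75.1 CPM with AOA, a log2 change of 3.21 ± 0.15 (SE; edgeR, adjusted p = 1.12e-05).

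Ratios of counts within a library do not depend on how libraries are scaled, and 5 were examined, of which that of Cdt1 to the ring was added after the values had been seen. Trends with gene length can still enter them. In AOA replicate 1, genes of the length of Gmnn were higher by a median of 0.41 log2 CPM, against 0.07 for those of the length of Cdt1. The Cdt1 to Gmnn ratio fell on the log2 scale from 2.41, 1.06 and 1.94 in vehicle replicates 1, 2 and 3 to -0.63, 0.33 and 0.27 in AOA replicates 1, 2 and 3. This is a fall by 1.81 in the mean, or 3.51-fold, and it was seen in 3 of 3 mice. Against the mean of the 6 ring subunits, Cdt1 fell by 1.63 (mean -0.22 ± 0.62 with vehicle and -1.86 ± 0.03 with AOA, SD, n = 3). Cdc6 rose against the ring by 1.74 and Mcm10 by 0.96, again in 3 of 3 mice. Gmnn kept no single direction against the ring, with a difference of 0.18 that was 0.87, -0.26 and -0.07 in mice 1, 2 and 3 and that turned to -0.13 without AOA replicate 1. For the 4 other ratios the groups did not overlap, and the exact permutation test (two-sided) gave p = 0.1, the smallest that 3 libraries against 3 allow, and 0.125 after Benjamini-Hochberg adjustment over the 5 ratios. For Gmnn against the ring the exact p was 0.9.

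**Figure D3:**
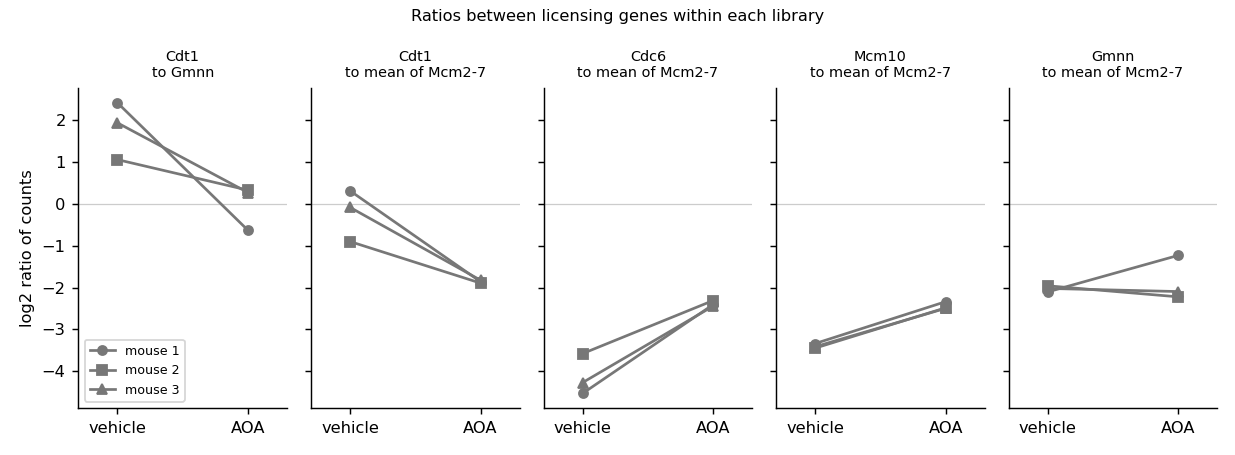
Log2 ratio of counts between licensing genes in each library, with a line joining the vehicle and AOA cultures of each mouse. The ratio of Cdt1 to Gmnn and that of Cdt1 to the ring mean fall in every mouse, those of Cdc6 and Mcm10 to the ring rise in every mouse, and that of Gmnn to the ring rises only in mouse 1. Counts are not divided by gene length, so only changes between groups are read from the plot.

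The order of the members by per-kilobase level differed between the groups most in the place of Cdt1, which went from 3 to 8. Mcm3 went from place 4 to 1 and Mcm5 from 7 to 4. With vehicle, Mcm7 (37.2 ± 1.83 CPM per kilobase, SD, n = 3), Mcm6 (37.1 ± 5.35) and Cdt1 (33.3 ± 9.36) came first and did not differ beyond their spread. They were followed by Mcm3 (29.1 ± 2.64), Mcm4 (26.7 ± 2.37), Gmnn (21.0 ± 3.84), Mcm5 (16.0 ± 3.69) and Mcm2 (15.4 ± 4.08), and Mcm10 (1.99 ± 0.199) and Cdc6 (1.08 ± 0.542) stood far below. With AOA, Mcm3 (144 ± 19.7 CPM per kilobase, SD, n = 3), Mcm7 (139 ± 14.8), Mcm6 (136 ± 12.3), Mcm5 (126 ± 5.01) and Gmnn (114 ± 30.3) came first with overlapping ranges. Mcm4 (105 ± 19.4) and Mcm2 (83.9 ± 13.0) followed. Cdt1 (49.8 ± 6.12) now stood eighth, with its highest library at 54.6 CPM per kilobase, below the lowest of Mcm2 at 69.0. Mcm10 (18.5 ± 1.14) and Cdc6 (16.1 ± 2.25) remained the least abundant, and their ranges met.

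Individual libraries also ranked the members in a shared way. Vehicle replicate 2 had the highest level of its group for 9 members and the lowest for Cdt1. AOA replicate 1 had the lowest level of its group for 9 members and the highest for Gmnn. For most of the 9, tested genes within 10% of the member's length were also lower in this library, but by less. Cdc6 lay 0.34 log2 CPM below the mean of the other AOA libraries, against a median of 0.16 below for such genes. For Mcm7 and Cdt1 such genes were slightly higher, by medians of 0.05 and 0.07. Without vehicle replicate 2 the log2 fold change of Cdc6 was 4.39, and over the alternatives it ranged from 3.67 to 4.39. Over the 6 libraries each of 9 members correlated with the mean of all members at a Pearson r between 0.974 (Gmnn) and 0.999 (Mcm10), whereas Cdt1 had an r of 0.711, where members are part of that mean and the groups alone give a high r. By the same measure the tested genes most like the members were Noct, Anapc5, Xrcc2, Cnot9 and Hells, with r of at least 0.999 over 6 libraries, and 220 of 11749 genes outside the list had an r of at least 0.99.

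The wider pathway was uneven too. Of the 6 genes of the origin recognition complex, 4 were called higher, 0 lower and 2 not called, with a median log2 fold change of 0.82, where 26.2% of all tested genes were called higher and 53.0% in either direction. Orc1, the subunit whose abundance is known to cycle, rose most. It stood at 1.75, 5.01 and 1.95 CPM with vehicle and at 25.5, 22.7 and 20.7 CPM with AOA (log2 fold change 2.97, adjusted p = 2.09e-04 by edgeR), and without vehicle replicate 2, the highest of its group, the log2 fold change of Orc1 was 3.66. Orc6, Orc2 and Orc3 had log2 fold changes of 2.19, 1.19 and 0.45, and the call of Orc3 was lost without vehicle replicate 3 (adjusted p = 0.0550 by edgeR). Orc4 and Orc5 were not called, with log2 fold changes of 0.25 (95% interval -0.21 to 0.70) and -0.18 (-0.52 to 0.15).

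Among 12 origin firing factors, 11 were called higher, 0 lower and 1 not called, with a median log2 fold change of 1.77. Over all tested genes, 26.2% were called higher and 26.8% lower. Cdc45 and Gins1, parts of the active helicase, led with 3.14 and 3.11. Gins2, Gins3 and Gins4, which complete the same GINS complex, had log2 fold changes of 2.60, 1.51 and 0.97. The kinase gene Cdc7 rose by 2.26 and Dbf4, its activating subunit, by 0.52, with Dbf4 already at 106 ± 16.1 CPM (SD, n = 3) with vehicle against 12.7 ± 2.01 CPM (SD, n = 3) for Cdc7. Ticrr, Recql4, Topbp1 and Mtbp rose by 2.41, 2.04, 1.43 and 1.20. Donson was not called (log2 fold change -0.07, 95% interval -0.46 to 0.31).

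CDT1 protein is removed through the CRL4 and SCF ubiquitin ligases, and of 8 genes of these, 4 were called higher, 0 lower and 4 not called, with a median log2 fold change of 0.41. The share called, 4 of 8, is near the 53.0% of all tested genes called in either direction, while 26.2% of them were called higher. The genes called were Dtl, Skp2, Skp1a and Ddb1, of which Skp2 and Skp1a are named after their values had been seen. Dtl, the subunit that brings CDT1 to CRL4, stood at 11.6, 16.99 and 16.2 CPM with vehicle and at 115, 101 and 109 CPM with AOA (log2 fold change 2.85, adjusted p = 1.26e-05 by edgeR). Skp2, which recognises CDT1 for SCF, had a log2 fold change of 2.53, while Skp1a and Ddb1, shared adaptors of many ligases, had 0.98 and 0.57. The call of Ddb1 was lost without vehicle replicate 1 or 3 or AOA replicate 2 or 3, with adjusted p between 0.0603 and 0.0757 by edgeR. Of 8 other MCM and licensing-associated genes 6 were tested, and 4 were higher, 0 lower and 2 not called (median 0.67), from Mcm8, a helicase subunit of DNA repair, at 2.27 to the MCM-binding gene Mcmbp at 0.65. Gmnc and Mcidas of that list were not analysed here. All 10 genes of a proliferation list were higher (median 2.74), from Ccne1 at 0.98 to Rrm2 at 3.34. The counts of the other MCM list and the proliferation list stand beside 26.2% of all tested genes called higher. The part of a general change in cycling in the rise of the licensing genes was not tested.

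**Figure D4:**
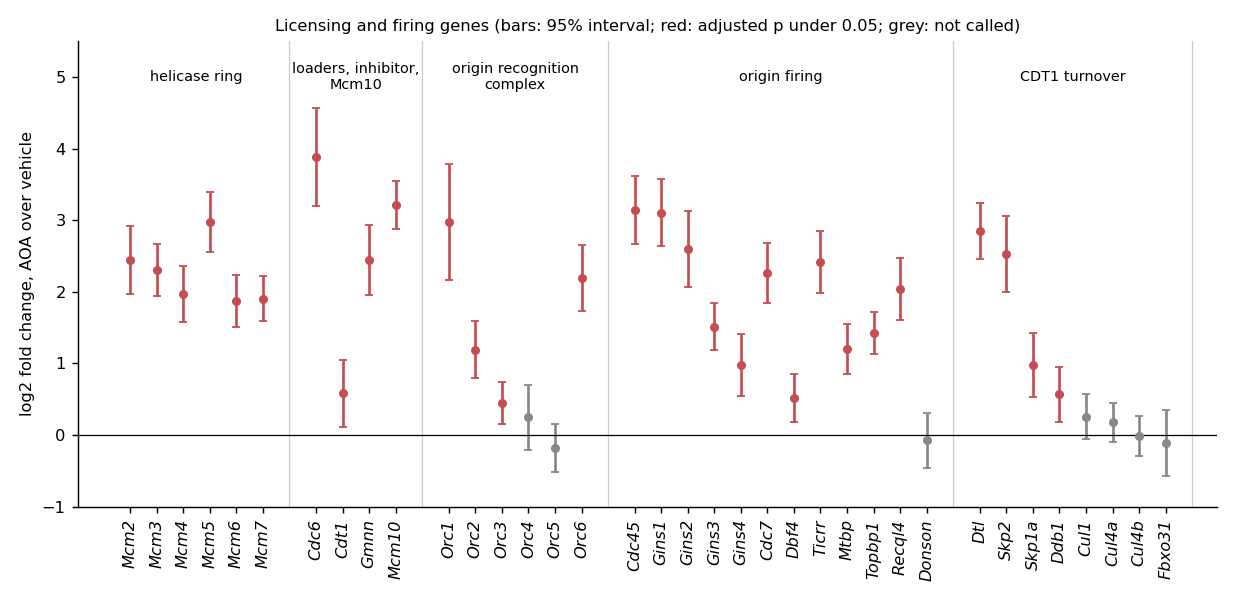
Log2 fold change of AOA over vehicle with its 95% interval for the members, the origin recognition complex, the origin firing factors and the CDT1 turnover genes, in red where the adjusted p is under 0.05 and in grey where it is not. Cdt1 at 0.58 lies apart from the other members, which lie between 1.87 and 3.88, and in the outer groups large rises such as Orc1 at 2.97 stand beside genes near 0 such as Orc5 and Cul4b.

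Total counts ran from 12881962 to 18934869 with vehicle and from 18696114 to 21997078 with AOA. Cd8a and Cd8b1, which define the labelled cells, had at least 654 CPM in each library, and the 6 CD8 T cell markers, of which 2 were higher and 1 lower, summed to between 3304 and 4213 CPM with vehicle and to between 4251 and 4984 CPM with AOA. Markers of other cells moved with the treatment in both directions. The 4 CD4 T cell markers summed to between 158 and 210 CPM with vehicle and to between 33.0 and 54.3 CPM with AOA, with 3 lower. Of 6 myeloid markers 2 were tested and both were lower, summing to between 55.2 and 66.2 CPM with vehicle and to between 3.91 and 6.61 CPM with AOA, while Lyz2 had between 0 and 22 counts. Among B cell markers Cd79b went the other way, from 10.6, 11.6 and 13.0 CPM with vehicle to 28.2, 23.4 and 19.6 CPM with AOA (2.02-fold, adjusted p = 0.00172 by edgeR), while Cd79a and Ms4a1 had at most 36 counts in a library and were not called. Of the NK cell markers 2 were tested and 1, Klrb1c, was lower, with sums of 145 to 305 CPM with vehicle and 128 to 212 CPM with AOA. Eomes made up the larger part of each sum and was not called (log2 fold change 0.04). It stood at 134, 194 and 125 CPM with vehicle and at 121, 201 and 144 CPM with AOA. Which cells its RNA came from was not tested. Vehicle replicate 2 stood apart in Klrb1c, at 111 CPM against 41.7 and 20.1 CPM in vehicle replicates 1 and 3. Its Ncr1 count was 37, against 0 and 0. The 4 erythroid markers were not analysed here. The part of these cells in the changes of the licensing genes was not tested.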

How the data were processed

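Libraries of stranded messenger RNA were sequenced as paired-end reads. The authors aligned them with STAR at default settings and counted uniquely mapped reads per gene, and the submitters' processing notes name bcl2fastq, STAR, featureCounts, DESeq2 and the build mm10. The sources used here name no annotation, strand setting or gene filter. The deposited values are raw counts listed with symbols, Entrez numbers and gene lengths. They were tested with edgeR 4.0.16 under R 4.3.3 (filterByExpr with a minimum count of 10, TMM, robust quasi-likelihood test, Benjamini-Hochberg adjustment over all tested genes), without the mouse. Standard errors were derived from the log2 fold change and its F statistic. CPM used TMM library sizes, and log2 CPM a prior count of 2. Log2 count ratios used a prior count of 0.5. The alternatives are given in the closing section. The method was tested on simulated data.

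The members and lists were chosen with earlier results of these data known. All members, the origin recognition and firing genes, the called genes of the largest and smallest change in other lists, and the 5 genes most like the members were named by rule. The pairing comes from the labels, where a number names the donor mouse. The departures of a mouse's vehicle and AOA libraries from their group means were only weakly correlated. Over genes, r was 0.0868, 0.189 and 0.194 in mice 1, 2 and 3, and libraries of different mice were not compared in this way. A single gene cannot reach an exact p below 0.1. Gene positions are from GENCODE vM21 (GRCm38) and promoters from RefSeq (GRCm38.p6). Protein sequences were not used here. The result of 1 marker gene is not reported here.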

Additional observations from a re-analysis of the deposited data

How the results depend on the processing

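Tests were repeated with DESeq2 1.42.0 and with limma 3.58.1, with median-of-ratios or total-count scaling, with every gene kept or only those of 10 CPM or more in 3 libraries, with a replicate block for the mouse, after leaving out each library in turn and, chosen after the data had been seen, removal of length trends with and without the block. The 10 members were called higher under each except those that lost Cdt1, which left 9, and with the replicate block all 10 were called. Calls of Orc3, Ddb1 and Cdt1 were lost under the settings given with their values. Cul1 was gained without vehicle replicate 2, and Kat7 without AOA replicate 1 and with length trends removed, with and without the block. Added to the main settings, the block changed no call of a named gene, and with length trends removed Cdt1 was called with the block (adjusted p = 0.0472 by edgeR) and not without it (0.0520). With each library left out, the difference in log2 ratio ranged from -2.19 to -1.50 for Cdt1 to Gmnn, from -1.97 to -1.37 for Cdt1 to the ring, from 1.54 to 2.01 for Cdc6, from 0.91 to 0.99 for Mcm10 and from -0.13 to 0.36 for Gmnn, which changed sign. Within mice, a sign-flip test cannot give an exact permutation p below 0.25, the value of every ratio but the last (1.00). Without division by length the most abundant ring subunit exceeded the least by 3.28-fold with vehicle and 2.15-fold with AOA. Vehicle counts of Cdc6 were between 40 and 126 per library, which limits the precision of its fold change.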

Other observations

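Within the vehicle group, Cdt1 and the other 9 members were at opposite ends in the same library. Vehicle replicate 2 had the lowest Cdt1 (51.2 CPM, against 92.0 and 75.5 CPM in replicates 1 and 3) and the highest Cdc6 (7.99 against 3.17 and 4.13 CPM) and Orc1 (5.01 against 1.75 and 1.95 CPM). The same library had the highest NK cell markers of its group (Klrb1c at 111 CPM against 41.7 and 20.1 CPM), and their part in this pattern was not tested. With 3 libraries no correlation was computed. The ratio of Cdt1 to the ring varied by an SD of 0.62 log2 units among the vehicle cultures and by 0.03 among the AOA cultures.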
